A study of Homo sapiens with 3 samples.

Results

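The genes of glycolysis and glucose uptake were examined in BE(2)-C cells, a human neuroblastoma line that carries an amplified MYCN gene, after siRNA against WDR5, a protein needed by the enzyme complexes that place methyl groups on lysine 4 of histone H3. The set was given as 10 genes (LDHA, PGK1, ENO1, ALDOA, GAPDH, PKM, HK2, SLC2A1, PFKP and TPI1), and its members were the rows of the value table whose gene symbol was one of these. Rows were found for 5 of the 10: HK2, TPI1, GAPDH, PGK1 and LDHA. ENO1, ALDOA, PKM, SLC2A1 and PFKP had no named row and were not analysed here. The whole table held 14884 named genes. The 7442 of them with a mean log2 level at or above 6.78, the median gene, are called kept genes below, and all 5 measured members were among them.

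Each of 3 conditions had 1 array (Affymetrix HuGene-2_0-st): a control siRNA, and 2 siRNAs that target WDR5 (siRNA-1 and siRNA-2), all given for 40 hours in the same line. With 1 array per condition there was no replicate, so no value below carries an error, no test was possible, and a ratio says how 2 arrays differ, not how the conditions do. WDR5 itself had a log2 level of 9.46 on the control array and of 7.90 on both arrays of WDR5 siRNA, an exact tie and 33.9% of control. That level lies within the range of the array's background rows, which leaves the size of the decrease uncertain (log2 ratios of -1.56 as deposited and -1.667 with the median background level subtracted). Of 15 neuroblastoma markers, 12 were measured and 10 stayed above the highest background row of the array (9.26) on all 3 arrays, against 0 of 4 measured Schwann and fibroblast markers and 0 of 6 measured leukocyte and endothelial markers. A level below 9.26 does not show absence, since LDHA, TPI1 and HK2 also lay below it. CD68 (7.75, 8.14 and 7.83) was a kept gene. So were S100B (6.83) and SOX10 (6.96), named outside the rule for named genes and with the same value on all 3 arrays. The endothelial gene PECAM1 was at least 1.5-fold higher with both WDR5 siRNAs, but at 4.29, 4.88 and 5.12 it lay below the filter level. RNA was taken from whole cultures, so fewer cells and less RNA per cell cannot be told apart.

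Glycolysis turns glucose into pyruvate in the cytosol. Glucose enters through transporters such as SLC2A1, hexokinases (HK1, HK2) trap it as glucose 6-phosphate, and phosphofructokinases and aldolases commit and split the sugar. TPI1, GAPDH, PGK1, PGAM1, enolases and PKM then carry out the later steps, of which those of PGK1 and PKM yield ATP. Lactate dehydrogenase (LDHA, LDHB) converts pyruvate and lactate while recycling NAD. MYC family and hypoxia-inducible factors are known regulators of many of these genes, and high glycolysis is a common trait of tumour cells.

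LDHA was the one measured member that stood lower than control with both WDR5 siRNAs, by about a 1.5-fold difference, while the 4 measured enzymes upstream of it lay between -0.09 and 0.32 of control on the log2 scale. The first enzyme, HK2, had a log2 level of 8.66 on the control array, 8.66 with siRNA-1 and 8.98 with siRNA-2. With siRNA-1 HK2 was equal to control to the last digit, and siRNA-2 left it 1.24-fold higher, a log2 difference of 0.32. Of the kept genes, 6.85% were as high or higher than HK2 with siRNA-2.

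TPI1, triose phosphate isomerase, interconverts the pair of trioses that aldolase makes. It stood at 7.38 with the control, 7.38 with siRNA-1 and 7.36 with siRNA-2. Its ratio to control was an exact 0 with siRNA-1 and -0.03 with siRNA-2 (its sign turned with quantile normalization, 0.043). Exact ties are common in this table: in 41.1% of kept genes 2 or more arrays had identical values, so an exact 0 does not show that levels were equal.

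GAPDH, which makes 1,3-bisphosphoglycerate and is often used as a reference gene, stood at 9.95, 10.07 and 10.05 with the control, siRNA-1 and siRNA-2. Both WDR5 siRNA arrays were slightly above the control array, by 0.12 and 0.11 on the log2 scale, or 1.08-fold each. PGK1, which makes the first ATP of the pathway, stood at 10.08, 10.09 and 9.99. It was 0.01 above control with siRNA-1 and 0.09 below it with siRNA-2 (a ratio of -0.09). GAPDH and PGK1 were the members above the highest background row on every array.

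LDHA encodes the A subunit of lactate dehydrogenase and is widely cited as a MYC target. Its log2 level was 7.57 with the control siRNA, 6.96 with siRNA-1 and 7.00 with siRNA-2. The control array was the high one, and the WDR5 siRNA arrays lay within 0.04 of each other (siRNA-1 over siRNA-2, -0.04). LDHA was 1.52-fold lower with siRNA-1 (a log2 ratio of -0.61, 65.6% of control) and 1.48-fold lower with siRNA-2 (-0.57, 67.5% of control). With siRNA-1, 4.3% of kept genes had a ratio as low or lower, and with siRNA-2, 4.33%; 62 kept genes (0.833%) were as low or lower with both. All 3 LDHA levels lay within the range of the background rows, 1.75 to 9.26, which leaves the size of its fold uncertain.

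**Figure D1:**
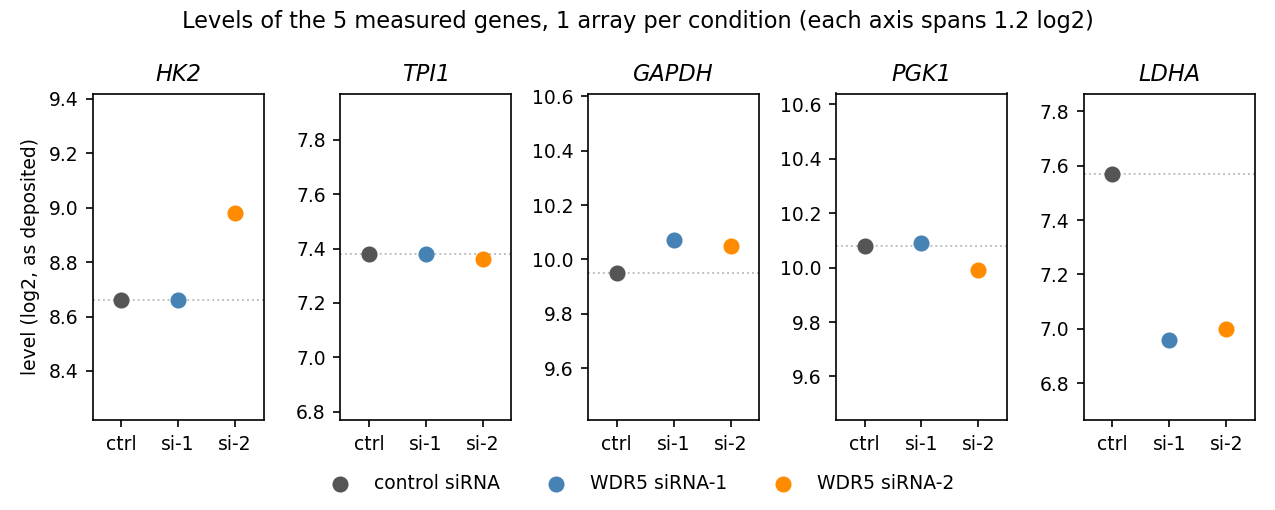
Log2 level (vertical axis, as deposited) of HK2, TPI1, GAPDH, PGK1 and LDHA on the 3 arrays, 1 point per array, in pathway order; the dotted line marks the control level, each axis spans 1.2 log2, and ctrl, si-1 and si-2 are the control array and the arrays of siRNA-1 and siRNA-2. LDHA alone has both WDR5 siRNA points over 0.5 below its control point (6.96 and 7.00 against 7.57), and HK2 is higher with siRNA-2 alone (8.98).

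A gene counted as lower or higher if both siRNAs put it 1.5-fold or more (0.585 on the log2 scale) to the same side of control. By this rule 0 of the 5 measured members were lower and 0 were higher, where 0.847% of all kept genes were lower and 0.618% were higher. By any amount, 1 member was lower with both (LDHA, where 22.3% of kept genes were) and 1 was higher with both (GAPDH, where 18.0% were). LDHA missed the rule through siRNA-2 alone, and its place at the limit depends on the settings. It was the 1 member counted as lower under the looser of the other fold limits tried (3.78% of kept genes were lower and 2.47% higher by that limit), or when the median background level was subtracted (log2 ratios of -0.725 and -0.673; 69 of 6689 kept genes were then lower and 54 higher). It fell short of 1.5-fold with both siRNAs under quantile normalization (-0.568 and -0.502) and with the kept-gene medians set equal (-0.567 and -0.521).

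For each siRNA alone, siRNA-1 had 1 member lower by 1.5-fold (LDHA), where 4.6% of kept genes were lower and 2.24% higher. With siRNA-2 no member was lower, where 4.0% of kept genes were lower and 2.19% higher. The median log2 ratio of the 5 members was 0 with siRNA-1 and -0.03 with siRNA-2, and that of all kept genes was 0 with each. The siRNA-2 median of the members was above 0 with quantile normalization (0.043) and with equal kept-gene medians (0.018), so it has no settled sign. Both ratios share the 1 control array.

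**Figure D2:**
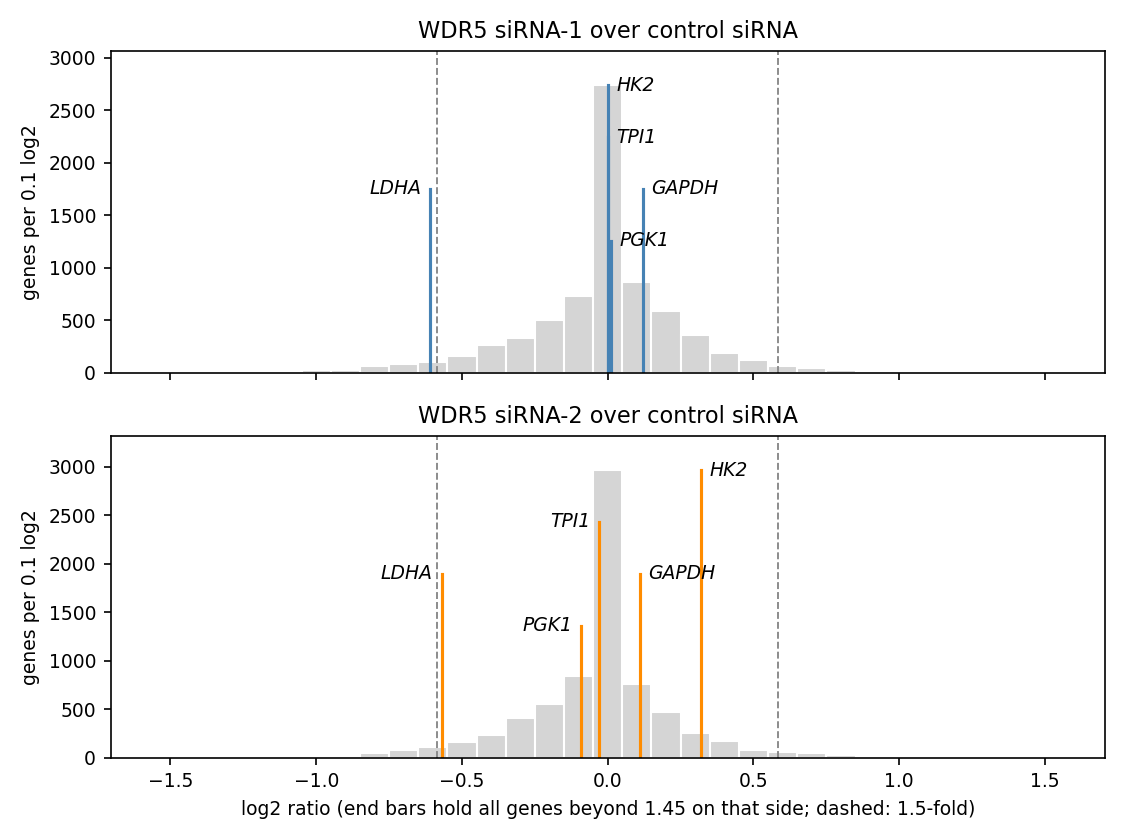
Number of kept genes (vertical axis) by log2 ratio to the control siRNA (horizontal axis, bins of 0.1) for siRNA-1, top, and siRNA-2, bottom; coloured lines mark the 5 measured members, their heights only separate the names, and dashed lines mark 1.5-fold. LDHA lies at -0.61 and -0.57, at the lower limit on both panels, while the other members lie between -0.09 and 0.32.

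Compared directly, the 2 WDR5 siRNA arrays lay within 0.32 of each other on the log2 scale for each member. HK2 was 1.24-fold lower on the siRNA-1 array than on that of siRNA-2 (log2 ratio -0.32), PGK1 differed by 0.11, and TPI1 and GAPDH differed by 0.03 and 0.01. No member differed by 1.5-fold, where 4.65% of kept genes were lower and 4.21% higher with siRNA-1. At those shares this does not set the members apart from kept genes in general.

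The series sets WDR5 beside N-Myc, a factor that binds the E-box CACGTG, so the windows from 250 bases before to 50 bases after each start in RefSeq (GRCh38.p14) were searched for CACGTG and for the hypoxia response cores ACGTG and GCGTG, on both strands. CACGTG contains ACGTG, so each E-box is also counted as an ACGTG match. The E-box stood in 7.26% of all 35116 windows, ACGTG in 21.41% and GCGTG in 36.54%. Of the 18 windows of the 10 genes, 4 held an E-box, 10 held ACGTG and 10 held GCGTG, and the E-boxes belonged to LDHA, GAPDH, HK2 and ALDOA. The 200 bases before the most upstream start of LDHA (chr11:18394363-18394562, plus strand) and of GAPDH (chr12:6535064-6535263, plus strand) are shown because both genes hold an E-box there and their ratios differ. Capitals mark CACGTG and ACGTG on either strand.
LDHA: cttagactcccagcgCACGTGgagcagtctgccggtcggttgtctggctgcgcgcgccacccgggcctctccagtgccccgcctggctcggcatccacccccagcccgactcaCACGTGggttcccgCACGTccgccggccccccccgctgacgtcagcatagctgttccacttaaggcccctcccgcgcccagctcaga
GAPDH: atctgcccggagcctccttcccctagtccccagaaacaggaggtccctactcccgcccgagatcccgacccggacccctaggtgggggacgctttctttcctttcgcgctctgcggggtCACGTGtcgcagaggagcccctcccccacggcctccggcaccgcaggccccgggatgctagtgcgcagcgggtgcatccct
The LDHA stretch holds the E-box 2 times, starting at -185 and -87 from the start, and 1 further ACGTG core at -73 on the other strand. The GAPDH stretch holds it at -81. LDHA had log2 ratios of -0.61 and -0.57, and GAPDH of 0.12 and 0.11; these 2 genes were chosen for that contrast, so nothing is read from it. The 200 bases before the upstream start of HK2 had no E-box but ACGTG at -48 and GCGTG at -55, and the window of the other HK2 start had 2 E-boxes. The same stretch of PGK1 had ACGTG at -183, and the upstream TPI1 window had none of the 3 motifs. A match describes these letters and is not a measured binding site.

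The other glycolytic enzymes filled some of the missing steps. Of 20 listed, 10 were measured and 6 kept. By 1.5-fold with both siRNAs, 0 of the 6 were lower and 0 higher (0.847% and 0.618% of all kept genes). Their median log2 ratios were -0.04 and 0.08. HK1, the hexokinase of most tissues, stood at 9.54, 9.55 and 9.54 with the control, siRNA-1 and siRNA-2. GPI, which makes fructose 6-phosphate, stood at 12.31, 12.22 and 12.44. LDHB, which encodes the other main lactate dehydrogenase subunit, stood at 9.32, 9.40 and 9.34. Its log2 ratios of 0.08 and 0.02 were thus near 0, whereas those of LDHA were -0.61 and -0.57.

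PGAM1, the phosphoglycerate mutase between PGK1 and enolase, went opposite ways with the siRNAs. It stood at 7.76 with the control, 7.40 with siRNA-1 and 8.15 with siRNA-2, log2 ratios of -0.37 and 0.39, and the siRNA-1 array was 1.69-fold below that of siRNA-2. Its near-identical retrocopy PGAM4, chosen after its values were seen, had ratios of -0.18 and 0.22. Probes of PGAM1 and PGAM4 may read each other's transcripts, and processed pseudogenes of GAPDH, TPI1, PGK1 and LDHA may make their single values uncertain likewise. Probe sequences were not examined, so neither was tested.

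The fate of pyruvate was covered in part. Of 8 listed genes of lactate and pyruvate transport, 4 were measured and 3 kept. With both siRNAs, 0 were lower and 0 higher by 1.5-fold (0.847% and 0.618% of all kept genes), and medians were 0.25 and 0.16. MPC1 and MPC2, which form the mitochondrial pyruvate carrier, were higher with both by smaller amounts. MPC1 stood at 10.58, 11.00 and 10.90 (1.33-fold and 1.24-fold higher), and MPC2 at 10.95, 11.20 and 11.00 (1.19-fold and 1.03-fold). Of 12 listed genes of pyruvate dehydrogenase and its regulators, 6 were measured and 4 kept, again with 0 lower and 0 higher and medians of 0.00 and -0.01. DLD, the dihydrolipoamide dehydrogenase subunit, stood at 10.75, 10.18 and 10.73, 1.49-fold below control with siRNA-1 but within 0.03 of it with siRNA-2. None of the 14 listed glucose transporters beyond SLC2A1 had a named row (0 measured). Of 7 genes that set the level of fructose bisphosphates, 1 was measured: TIGAR, named as the only one and outside the rule for named genes, at 8.35, 8.34 and 8.52.

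The routes that leave glycolysis held the one gene of the pathway lists that passed the rule. Of 21 listed genes of the pentose phosphate pathway and other side branches, 18 were measured and 15 kept. With both siRNAs, 1 was lower by 1.5-fold and 0 were higher (0.847% and 0.618% of all kept genes). The other 14 met neither limit, and the medians of the 15 were -0.03 and 0.00. GPD2, the mitochondrial glycerol 3-phosphate dehydrogenase that passes cytosolic reducing equivalents to the respiratory chain, stood at 8.35 with the control, 7.00 with siRNA-1 and 7.53 with siRNA-2. GPD2 was thus 2.56-fold and 1.77-fold lower (log2 ratios of -1.35 and -0.82). Both WDR5 siRNA arrays were below control, at levels within the range of the background rows.

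Other side-branch genes were unequal between the siRNAs. PHGDH, the first enzyme of serine synthesis from 3-phosphoglycerate, stood at 9.99, 8.44 and 9.90, log2 ratios of -1.54 and -0.09 to control. RPIA, ribose 5-phosphate isomerase, stood at 8.01, 6.95 and 7.85 (-1.06 and -0.16). With siRNA-1, 5 of the 15 kept side-branch genes were lower by 1.5-fold (4.6% of all kept genes were), and with siRNA-2 1 was (4.0% of all kept genes); the difference between the siRNAs was not tested. RPE, the epimerase beside RPIA in the pentose phosphate pathway, went the other way, at 7.06, 7.54 and 7.54 (1.4-fold higher with each). The WDR5 siRNA values of RPE are an exact tie, which is common in this table and does not show that the siRNAs agreed. The levels of RPIA and RPE lay within the range of the background rows. PGM2, a phosphopentomutase, stood at 10.76, 11.22 and 11.26 (1.37-fold and 1.41-fold higher).

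**Figure D3:**
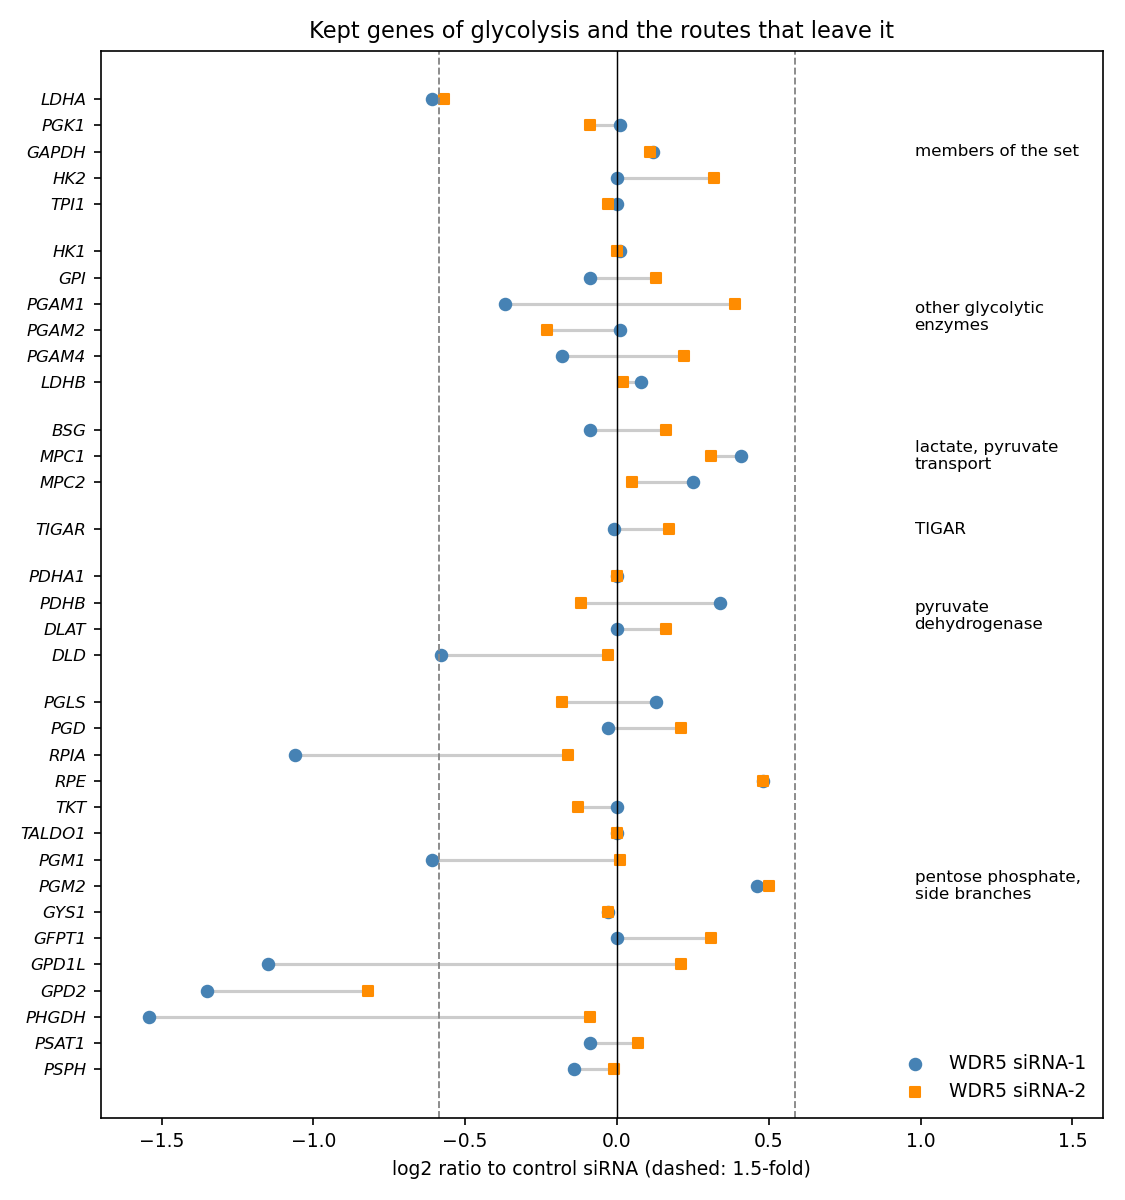
Log2 ratio to the control siRNA (horizontal axis) of each kept gene of the glycolysis set, the remaining glycolytic enzymes and the routes that leave glycolysis, 1 line per gene; circles are WDR5 siRNA-1, squares WDR5 siRNA-2, and dashed lines mark 1.5-fold. GPD2 has both points beyond the lower limit (-1.35 and -0.82), LDHA has both at it, and PHGDH, RPIA, GPD1L and PGM1 (the last pair chosen after their values were seen) are beyond it with siRNA-1 alone.

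Regulators of glycolytic genes and hypoxia-induced genes outside glycolysis gave no shared change of 1.5-fold. Of all kept genes, 0.847% were lower and 0.618% higher by that rule, so its absence from short lists says little about them. Of 14 listed regulators, 10 were measured and 8 kept, with medians of 0.00 and 0.04. ARRDC4, an arrestin-family gene induced by the glucose-sensing MondoA factor, stood at 8.40, 9.49 and 8.62, 2.13-fold and 1.17-fold higher. TXNIP, a kept gene of the same list but outside the rule for named genes, did not follow it. It stood at 9.13, 9.19 and 8.83 (0.07 and -0.30). SP1, a general promoter factor, had ratios of -0.01 and -0.10. Of 14 hypoxia-induced genes, 11 were measured and 9 kept, with medians of 0.00 and 0.06. ANKRD37 stood at 6.96, 7.98 and 7.12 (1.02 and 0.16), and KDM3A, a histone demethylase gene, at 7.59, 8.25 and 7.63 (0.66 and 0.04). BNIP3L, a mitophagy receptor gene, stood at 11.60, 11.36 and 10.60 (-0.24 and -0.99), and DDIT4, an inhibitor of mTORC1 signalling, at 8.56, 8.65 and 8.85 (0.09 and 0.29). ARRDC4, ANKRD37 and KDM3A were farther from control with siRNA-1, and BNIP3L and DDIT4 with siRNA-2.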

How the data were processed

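RNA of BE(2)-C cells was measured on 3 arrays, 1 per siRNA. The authors deposited 1 value table of 53617 rows, with values between 1.34 and 14.9, taken here to be log2; the scale is not stated, and every fold rests on that reading. Per the submitters' processing notes MAS5 was used, for a step they do not name; background correction, normalization and summarisation are not given in the sources used here. Array medians over all rows were 5.81, 5.79 and 5.79, and no further scaling was applied.

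Rows were named through the platform annotation (16098 rows with 1 symbol, 0 with several, 37519 with none here), with symbols updated through RefSeq. Of a gene's several rows (779 genes) the one with the highest mean was used; each measured member had 1. Ratios are differences of log2 values (Python 3.11.15, pandas 2.3.3). The 23 background rows had a median of 4.61. Precision is limited by the number of arrays. The rule for counting genes was run on simulated arrays first, as a check of the code. It was checked for unchanged genes and for changes of 2-fold or more, not for changes at the 1.5-fold limit. The simulated noise was a chosen value, not taken from these arrays. The alternatives were quantile normalization, equal kept-gene medians, the mean of probe sets, filters, background subtraction and fold limits of 1.25 and 2. Genes named are all members, WDR5, HK1, GPI, PGAM1 and LDHB, and from each list those past the rule and up to 4 more with the largest shared ratio; genes outside this rule are identified where named. Members, lists and rules were chosen with earlier results of these data known.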

Additional observations from a re-analysis of the deposited data

How the results depend on the processing

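The 2 counts of members were recomputed under 8 alternatives, the 3 medians under 6 of them and the ratios of the 5 members under 4. Of 74 recomputed values, 70 kept their count or stayed within 0.1 on the log2 scale. Those under the mean of probe sets or the changed filters could not move. Each measured member had 1 probe set and passed the filter. Equal kept-gene medians shift every siRNA-1 ratio by 0.041 and every siRNA-2 ratio by 0.045. No ratio or median could therefore move by 0.1 under that setting. The counts of 0 could not rise under the fold limit of 2. Much of the agreement was thus fixed in advance. The number of members lower with both siRNAs was 0 as reported and 1, LDHA, with the median background level subtracted (where 69 of 6689 kept genes were lower) and with the looser fold limit (281 of 7442); by construction the first widens the ratios of dim genes and the second admits smaller ones. The LDHA ratios moved from -0.61 and -0.57 to -0.725 and -0.673 with the subtraction. Medians of the members changed by less than 0.1, but their signs did not hold: with quantile normalization the siRNA-2 median was 0.043 and that of the direct comparison (siRNA-1 over siRNA-2) was -0.012, against 0.012 as reported. The ratios of 19 other named genes, WDR5 and GPD2 among them, were recomputed under 4 of these alternatives, chosen after seeing the data. Of 152 values, 147 stayed within 0.1. Those that moved did so with background subtraction, the siRNA-1 ratio of GPD2 among them (-1.354 to -1.548). The siRNA-2 ratio of GPD2 nearest to 0 was -0.753, still past 1.5-fold. The mean of probe sets could not move any value, as each of the 19 genes had 1 probe set. Equal kept-gene medians could not either, since they shift each ratio by only 0.041 or 0.045. Among all kept genes, 63 were lower and 46 higher with both as deposited, 51 and 51 with quantile normalization, and 49 and 56 with equal kept-gene medians. No paired analysis was possible because each group had 1 array. No array could be left out for the same reason. The levels of LDHA, TPI1 and HK2 overlap the background rows, and this limits how well the size of a fold is known.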

Other observations

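Relatives of the members, chosen after the annotation was seen, had rows of their own. LDHAL6A and LDHAL6B, lactate dehydrogenase A-like genes, stood at 5.33 on all 3 arrays and at 4.81, 4.61 and 4.67 with the control, siRNA-1 and siRNA-2, and LDHC, the testis form, stood at 3.83 on all 3. None of these relatives of LDHA reached the filter level of 6.78. The TPI1 pseudogene row TPI1P2 stood at 6.26, 6.18 and 5.61, log2 ratios of -0.07 and -0.65, and TPI1P3 stood at 5.18, 5.14 and 5.20. TPI1P2 was therefore lower with siRNA-2 by more than TPI1 (-0.03), at levels below the filter. The noncoding neighbours of a pair of members that were not analysed here, ENO1-AS1 and SLC2A1-DT, stood at 5.16 and 6.12 with exactly the same value on all 3 arrays.

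GPD1L, a cytosolic glycerol 3-phosphate dehydrogenase-like gene chosen after its values were seen, stood at 8.09, 6.93 and 8.30, log2 ratios of -1.15 and 0.21. GPD2 had ratios of -1.35 and -0.82. GPD1, the cytosolic enzyme of the glycerol phosphate shuttle and likewise chosen afterwards, stood at 5.02 on all 3 arrays, below the filter.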
